A study of Mus musculus with 7 samples.

Results

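The distal part of mouse chromosome 12 is described here, from 75 Mb to the last peak of the chromosome (mm9), in ATAC-seq of embryonic stem cells and neural progenitors. Its members were the deposited peaks on chromosome 12 whose start lay at or beyond 75 Mb. Over 3 lists of peaks reproducible between libraries and 4 lists of merged libraries, 16995 of 644207 peaks were members. The stretch was selected on the allelic reads of the female stem cells, in which the first of the listed alleles was low there, so the stem-cell allelic values below are a description and carry no test. The files do not name the strain of either allele, so each is named by the order of its column, first-listed or second-listed.

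ATAC-seq inserts sequencing adapters into open chromatin with the Tn5 transposase, and a peak is a stretch with many insertions. There were 7 samples, 1 per group, each made from replicates of 50K cells. The 3 female samples were all F1 hybrids of 129S1 and Cast: wild-type embryonic stem cells (mESC, line F1216, grown with serum and LIF), wild-type neural progenitor cells (NPC, line C2) and NPC with the deletion labelled deltaFT (line sgdgb2), both NPC lines grown with FGF and EGF. The 4 TXY samples were male J1 mESC whose X chromosome carries Xist under doxycycline control, with Xist either intact (wild type) or lacking the A repeat (deltaRepA). Each genotype was sampled untreated (no dox) and after 2 ug/mL doxycycline for 48 hours (plus dox). Each female group is a single line and each TXY group a single sample, so that a feature of 1 line cannot be told apart from a feature of its cell type, genotype or treatment. The mESC sample has neural progenitors as its source label, while its title and medium are those of mESC, and the descriptions of both plus-dox samples name a no-dox file. The titles were followed in each case.

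Every autosome of an F1 hybrid comes once from each parent, and sequence differences between the parents let a share of reads be given to 1 allele. The reads of an allele in a peak depend on how open that allele is and on how many copies of it the cells carry, and peak counts cannot tell these apart. Distal mouse chromosome 12 carries Esrrb, which encodes a nuclear receptor of the stem-cell network, the imprinted Dlk1 to Dio3 cluster, where genes are expressed from 1 parental copy, and the immunoglobulin heavy-chain locus. The peaks were not placed in genes here, so no value below belongs to a named gene, and the labelled cell types were not checked against marker genes.

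The lists of reproducible peaks held 27538 autosomal peaks with 6176798 reads for mESC, 39692 with 10724324 for wild-type NPC and 36036 with 10845382 for deltaFT NPC. Between 38.8% and 40.7% of these reads carried an allele. A peak was called usable with at least 10 allelic reads. On distal chromosome 12 1050 of 1204 mESC peaks, 769 of 907 wild-type NPC peaks and 779 of 883 deltaFT NPC peaks were usable. All intervals below are 95% intervals. Those of a median over peaks come from the ranks of the peaks, taken as independent, and all others cover counting error only. The allele counts were given once per line, so no allelic value has a replicate.

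In mESC the first-listed allele was far below the second-listed one over the distal stretch. It had 39178 reads against 117448 of the second-listed allele, a share of 25.01% (24.8% to 25.2%, exact Clopper-Pearson interval). On the proximal side of the same chromosome it held 48.3% (47.9% to 48.8%) over 420 usable peaks, and on the 18 other autosomes together 49.5% (49.4% to 49.6%) over 21773. Single other autosomes ran from 47.3% on chromosome 14 to 51.1% on chromosome 11. The second-listed allele thus had 2.998 times the reads of the first-listed one on distal chromosome 12 and 1.02 times on the other autosomes.

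Peak by peak, 893 of 1050 usable distal peaks in mESC (85.0%) had an interval wholly below 50%, where 16.9% of all usable autosomal peaks did. An interval wholly above 50% was found in 13 distal peaks (1.24%), against 11.4% of all usable autosomal peaks. These counts come from the values that defined the stretch. The interval of 710 distal peaks (67.6%) held a share of 25%, and that of 144 (13.7%) held 50%. On the other autosomes 16.3% held 25% and 74.4% held 50%.

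**Figure D1:**
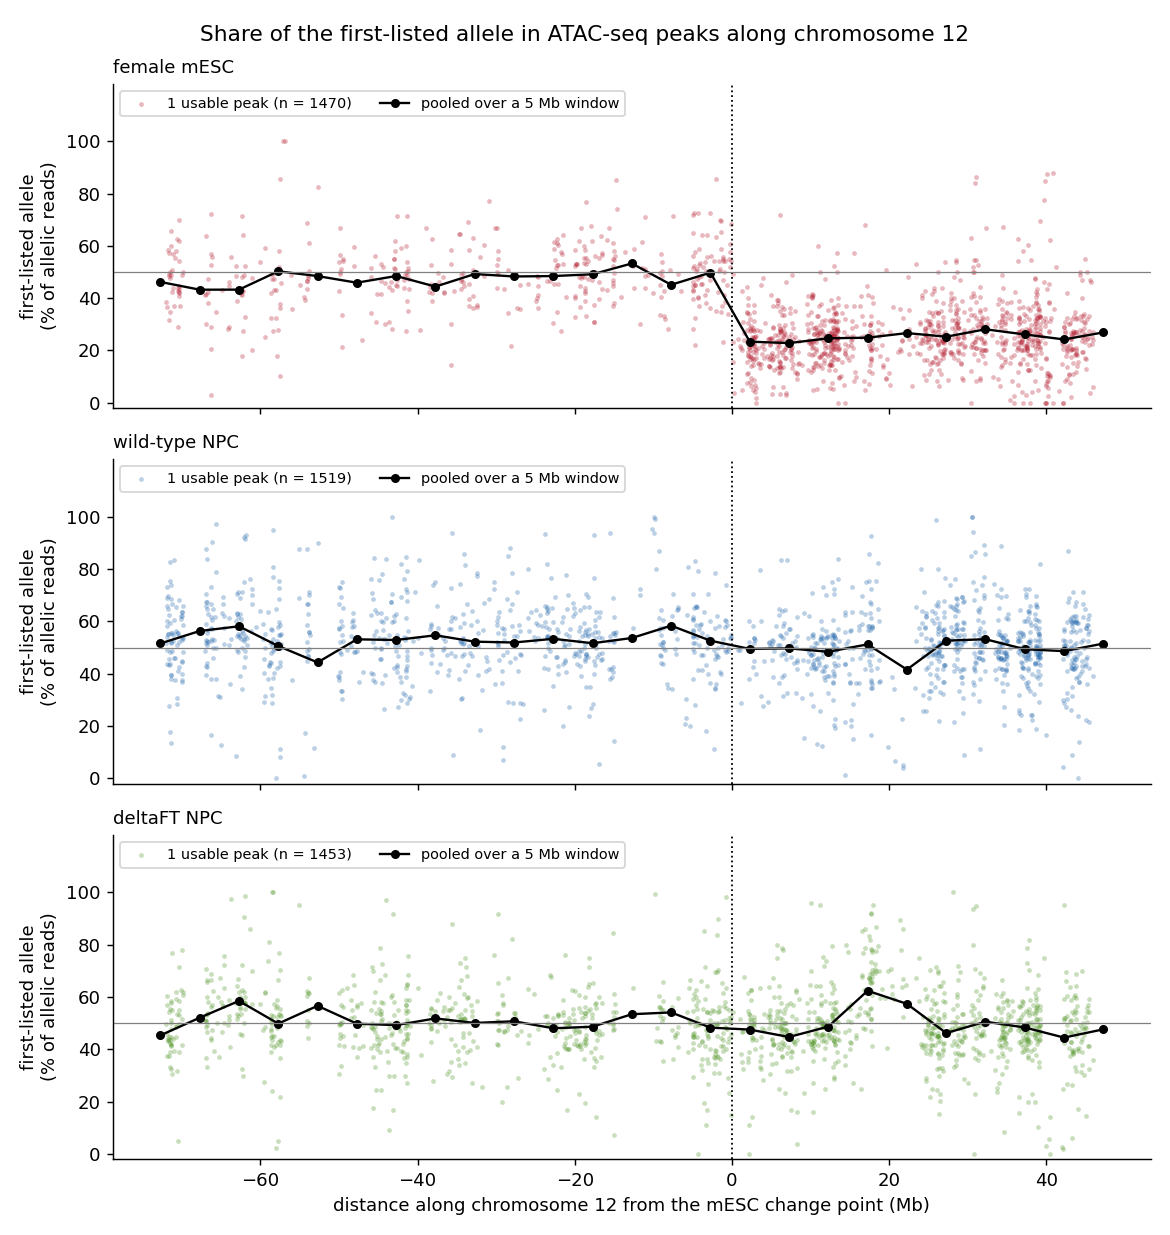
Share of the first-listed allele (percent of allelic reads) in each usable peak of chromosome 12, by distance in Mb from the mESC change point (dotted line), in the 3 female lines. Black points pool the reads of 5 Mb windows; in mESC they lie between 22.8% and 28.1% to the right of the line and between 43.2% and 53.3% to its left, while distal windows run from 41.6% to 53.2% in wild-type NPC and from 44.5% to 62.4% in deltaFT NPC.

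The change between the parts was abrupt. A fit of 1 change in the allelic share along the 1470 usable mESC peaks of chromosome 12 put it between the peak at chr12:75065262-75065834 and the peak at chr12:75394748-75394882, a gap of 329 kb. The 425 usable peaks before it had a share of 48.4% (47.9% to 48.8%) and the 1045 after it 24.9% (24.7% to 25.1%). The last 20 usable peaks before the gap pooled to 50.4% (48.3% to 52.4%) and the first 20 after it to 24.2% (22.5% to 26.1%). The gap held 3 further mESC peaks, with 116, 265 and 904 reads, none of which carried an allele. Counting the best 1, 3 split positions had a log likelihood within 3 units of the maximum, so the fit does not tie the change to this gap alone. It cannot be placed more finely from these peaks.

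The limit of 75 Mb therefore lay just before the change, and 5 usable members belonged by their share with the proximal side. Just outside the limit, the peak at chr12:74820835-74821099 had 49 reads of the first-listed and 40 of the second-listed allele (55.1%). Just inside it, the peak at chr12:75008480-75009288 had 157 and 145 (52.0%). The other 4 before the gap, at chr12:75009401-75009515, chr12:75050610-75051064, chr12:75053949-75054146 and chr12:75065262-75065834, had shares of 57.8%, 60.9%, 68.3% and 54.3%. Together these 5 members had 275 reads of the first-listed and 228 of the second-listed allele, a share of 54.7% (50.2% to 59.1%).

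The first 5 usable peaks after the gap were more uneven than those before it. The peak at chr12:75394748-75394882 had 3 and 10 allelic reads (23.1%), and that at chr12:75418030-75418340 had 13 and 71 (15.5%). At chr12:75422964-75423197 the alleles were near equal, with 62 and 64 reads (49.2%, 40.2% to 58.3%). The next, chr12:75434099-75434276, had 1 and 26 (3.70%), and chr12:75990333-75990802 had 61 and 191 (24.2%). Single peaks of this depth thus varied on both sides of 25%, and the level after the change rests on pooled reads.

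The same fit was made on every other autosome of mESC. The largest difference between its levels was 11.9 percentage points, on chromosome 13, with 20 peaks on the short side, which was the fewest allowed, and the median over the 18 was 3.60 points. On chromosome 12 it was 23.5 points with 425 peaks on the short side. In wild-type and deltaFT NPC the best single change on chromosome 12 was 3.22 and 3.26 points, after the peaks ending at 71448889 and 99866839.

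The unequal level was kept to the end of the chromosome. In steps of 5 Mb from 75 Mb onward the mESC shares were 23.4%, 22.8%, 24.7%, 24.9%, 26.7%, 25.3%, 28.1%, 26.1%, 24.2% and 26.9%. No distal window came near the proximal ones, which lay between 43.2% and 53.3%. Of 458 windows on the other autosomes with at least 10 usable peaks, the lowest had 40.3%. The last 20 usable peaks of the chromosome pooled to 25.5% (23.8% to 27.3%), and the last of them, chr12:121235106-121235701, had 28 and 76 reads (26.9%).

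At 1 Mb resolution, 45 of 46 distal windows with at least 5 usable peaks were under 35% in mESC. The remaining window, which holds the change, had 41.3%. The lowest was 19.2%, from 115 to 116 Mb. Among 1581 such windows on the other autosomes, 13 were under 35%. Within the low stretch itself the best single further change lay between 84186047 and 84728530 on chromosome 12, with 22.3% before and 25.5% after, a difference of 3.23 points. The step at the start of the stretch was thus several times that of the best single split inside it. Neighbouring small windows could differ more, as from 115 to 116 Mb and from 116 to 117 Mb, the latter with 32.8% (27.6% to 38.3%, 5 peaks).

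**Figure D2:**
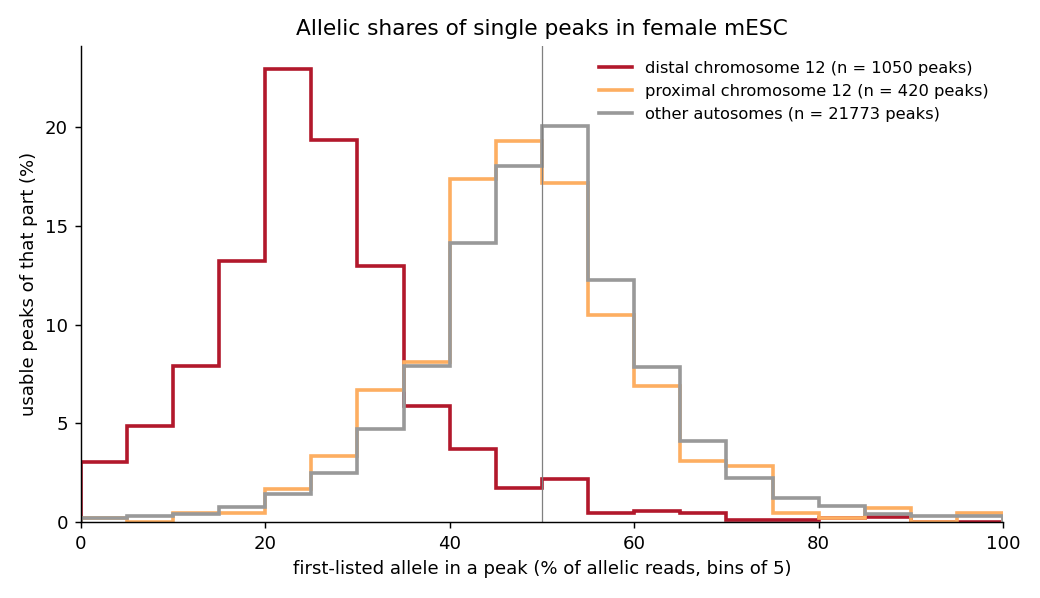
Distribution of the first-listed allele's share over single usable peaks of female mESC, as percent of the peaks of each part in bins of 5 percentage points. The distal peaks centre at a median of 24.5%, with proximal chromosome 12 at 48.2% and the other autosomes at 49.6%, and the 3 curves have similar widths.

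The spread among single distal peaks was close to that elsewhere. The median share was 24.5%, the middle 50% of peaks lay between 18.6% and 31.1%, and 947 of 1050 peaks (90.2%) were under 40%. The SD over peaks was 12.2 percentage points on distal chromosome 12, 12.5 on the proximal side and 12.8 on the other autosomes. Among peaks with at least 50 allelic reads it was 10.5, 11.2 and 11.3 points. On a log2 scale of the second-listed over the first-listed allele, with 0.5 added to each count, the order turned, and the SD of the same peaks was 0.94, 0.92 and 0.79. Counting error would give an SD of 5.42 points in distal peaks, so most of the spread was beyond it.

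The share hardly varied with the depth or width of a peak. The peaks after the change were split into 4 classes of about equal size by reads, and from the class with the fewest reads (35 to 96) to that with the most (361 to 4804) the pooled shares were 25.7%, 26.8%, 24.2% and 24.7%. Peaks at or above the median width had 24.9% and narrower ones 24.96%. Peaks that overlapped a reproducible peak of either NPC line by at least 1 bp had 25.2%, and those that overlapped none had 24.6%. The unequal alleles thus appeared alike in peaks shared with NPC and in peaks listed in mESC without an NPC counterpart.

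Distal mESC peaks without a counterpart in the untreated wild-type TXY list were lower. The 115 usable ones had 16.6% (15.7% to 17.4%), and the 935 with a counterpart 25.4% (25.2% to 25.7%). The same direction was found on the other autosomes, with 40.6% (40.1% to 41.1%) over 665 peaks without a counterpart and 49.6% (49.6% to 49.7%) over 21108 with one. On the proximal side the 12 peaks without a counterpart had 52.6% (48.4% to 56.8%). Peaks without a counterpart were also weaker, with a median of 83 reads against 194 on distal chromosome 12.

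The 10 distal peaks with the most allelic reads in mESC all had shares between 22.7% and 29.4%. At chr12:117518906-117520418 the reads of the first-listed and second-listed alleles were 581 and 1431 in mESC (28.9%). The overlapping NPC peak had 721 and 731 in wild type (49.7%) and 715 and 679 in deltaFT (51.3%). These are raw reads with no scaling for depth. In matched peaks of the other autosomes the first-listed allele had 662357 reads in mESC against 1050261 in wild-type NPC. Against deltaFT NPC the counts were 672581 and 1184237. The lower raw count of the first-listed allele at this peak is therefore not a relative decrease.

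Other strong peaks also had the lower share in mESC, while the raw reads of each allele relative to NPC differed from peak to peak. At chr12:119539397-119541095 mESC had 548 and 1427 reads (27.7%), and deltaFT NPC had 823 and 850 (49.2%). In wild-type NPC this element was listed as more than 1 peak, of which the matched one had 136 and 147 reads (48.1%) and chr12:119540369-119541096 had 883 and 678 (56.6%, 54.1% to 59.0%). At chr12:114394119-114395124 mESC had 310 and 887 (25.9%), wild-type NPC 465 and 415 (52.8%) and deltaFT NPC 473 and 487 (49.3%). At these peaks the NPC shares lay between 48.1% and 56.6%.

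At chr12:79326780-79327952 the mESC reads were 270 and 913 (22.8%), and the NPC shares were 44.8% and 47.4%. At chr12:114238560-114239563 they were 254 and 828 (23.5%), with 47.7% and 48.6% in NPC. The peak at chr12:91050230-91051261 had 285 and 684 (29.4%), with 36.6% in wild-type and 45.5% in deltaFT NPC. These peaks follow the same order, with mESC lowest.

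A large part of the stem-cell peaks was weak or unlisted in NPC. The peak at chr12:102956177-102956960, with 1504 reads in mESC (22.8%), had 106 reads in deltaFT NPC (47.4%) and no matched peak in wild-type NPC. The peak at chr12:118499488-118500182, with 1017 reads (25.9%), had no match in either NPC list. The peak at chr12:119436853-119437594 was listed in both, with 572 reads in wild-type and 633 in deltaFT NPC. Its mESC share was 25.7%, the wild-type NPC share 36.8% and the deltaFT NPC share 46.8%.

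One strong peak departed in an NPC line. At chr12:117285461-117286469 mESC had 227 and 771 allelic reads (22.7%) and wild-type NPC 673 and 722 (48.2%). In deltaFT NPC it had 11 and 413, a share of 2.59%. This value has no replicate.

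The 13 distal peaks of mESC with a high first-listed allele were mostly shallow. The 5 with the most reads had between 99 and 280. The peak at chr12:116071198-116071576 had 43 and 6 allelic reads (87.8%), and that at chr12:106314709-106315112 had 95 and 15 (86.4%). Those at chr12:115700842-115701099, chr12:105665151-105665474 and chr12:92213891-92214186 had 62.2%, 63.0% and 68.0%. None of these 5 had a matched peak in an NPC list, which was common among the members. Of all distal mESC peaks 29.1% overlapped a wild-type NPC peak, and of those under 200 reads 16.2% did. With deltaFT NPC these shares were 30.8% and 16.5%. Of the 13, 12 lay after the change, among 1045 usable peaks.

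Both NPC lines had near-equal alleles on distal chromosome 12, a measure that did not enter the choice of the stretch. Wild-type NPC had 50.3% (50.0% to 50.6%) of allelic reads on the first-listed allele, and deltaFT NPC had 49.1% (48.8% to 49.4%). The other autosomes of these lines had 50.4% and 48.9%. An interval wholly below 50% was found in 108 of 769 distal peaks of wild-type NPC (14.04%, where 15% of all usable autosomal peaks had one) and in 136 of 779 of deltaFT NPC (17.5%, where 17.6% did). An interval wholly above 50% was found in 112 (14.6%, where 17.3% did) and in 100 (12.8%, where 12.8% did). The distal members were thus close to the background of each line.

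At peaks matched between lines and usable in both, the share was lower in mESC than in wild-type NPC in 277 of 292 distal peaks (94.9%) and lower than in deltaFT NPC in 294 of 310 (94.8%). On the other autosomes this was so in 53.9% of 9791 and 47.7% of 10173. The comparisons with the 2 NPC lines share the mESC counts. Across matched distal peaks with at least 50 allelic reads in both lines, the log2 allelic ratio of mESC correlated with that of wild-type NPC at a Pearson r of 0.39 (n = 214 peaks) and with that of deltaFT NPC at 0.31 (n = 226). On the other autosomes r was 0.29 (n = 6966) and 0.31 (n = 7396). These are correlations over peaks, which share their libraries and are not replicates.

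Next to the position of the mESC change, the NPC lines showed a smaller step or none beyond counting error. Within 5 Mb before and after it the share was 49.9% (48.8% to 50.99%) and 21.8% (21.2% to 22.5%) in mESC. Wild-type NPC went from 52.7% (51.7% to 53.7%) to 48.8% (46.9% to 50.8%), intervals that do not overlap, and its whole proximal side had 53.2%. The deltaFT values were 48.3% (47.5% to 49.1%) and 47.5% (46.2% to 48.7%). Across 5 Mb windows the distal share of wild-type NPC ran from 41.6% to 53.2%, and that of deltaFT NPC from 44.5% to 62.4%. The wild-type window at 41.6% (95 to 100 Mb, 28 peaks) had a median over peaks of 51.2%.

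In deltaFT NPC a shorter stretch leaned towards the first-listed allele. Its share was 62.4% (61.4% to 63.3%) from 90 to 95 Mb and 57.4% (55.9% to 58.9%) from 95 to 100 Mb, while wild-type NPC had 51.2% and 41.6% there. Among 1 Mb windows with at least 5 usable peaks, those starting at 92, 93, 95 and 96 Mb had 65.4%, 67.9%, 61.1% and 66.2%. The windows starting at 91 and 99 Mb had 52.6% and 47.2%. The strongest peak of this stretch, chr12:96932993-96934140, had 672 and 382 reads (63.8%). In mESC the same windows of 5 Mb had 24.9% and 26.7%, within the range of the distal stretch. The difference between the NPC lines has no replicate.

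Distal chromosome 12 also had more reads in mESC. Of its peaks, 344 could be matched to a wild-type NPC peak and 364 to a deltaFT NPC peak, each the other's largest overlap. Scaled to the 18 other autosomes, their median log2 ratio of reads per bp was 0.69 (0.63 to 0.79) over wild-type NPC and 0.74 (0.68 to 0.83) over deltaFT NPC. Proximal chromosome 12 had 0.04 (-0.01 to 0.18) and 0.03 (-0.03 to 0.10). A ratio of at least 2 was reached by 105 of the 344 (30.5%, where 5.97% of all matched autosomal peaks reached it) and by 127 of the 364 (34.9%, where 5.41% did). A higher value than the autosomal median was found in 305 (88.7%) and 332 (91.2%).

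The excess lay with the second-listed allele. In summed reads of matched peaks the mESC over wild-type NPC ratio, with the other autosomes set to 1, was 1.93 (1.91 to 1.94) for all reads, 1.08 (1.06 to 1.10) for the first-listed allele and 3.01 (2.96 to 3.05) for the second-listed allele. Over deltaFT NPC these were 1.91, 1.08 and 3.05. Proximal chromosome 12 gave 0.93, 0.97 and 1.09 over wild-type NPC and 0.92, 0.95 and 1.02 over deltaFT NPC. In these pooled sums the second-listed allele was therefore about 3 times the autosomal level, and the first-listed allele was within 10% of it. As a median over usable matched peaks the first-listed and second-listed ratios were 1.01 and 2.84 over wild-type NPC. Over deltaFT NPC these medians were 1.11 and 2.98.

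**Figure D3:**
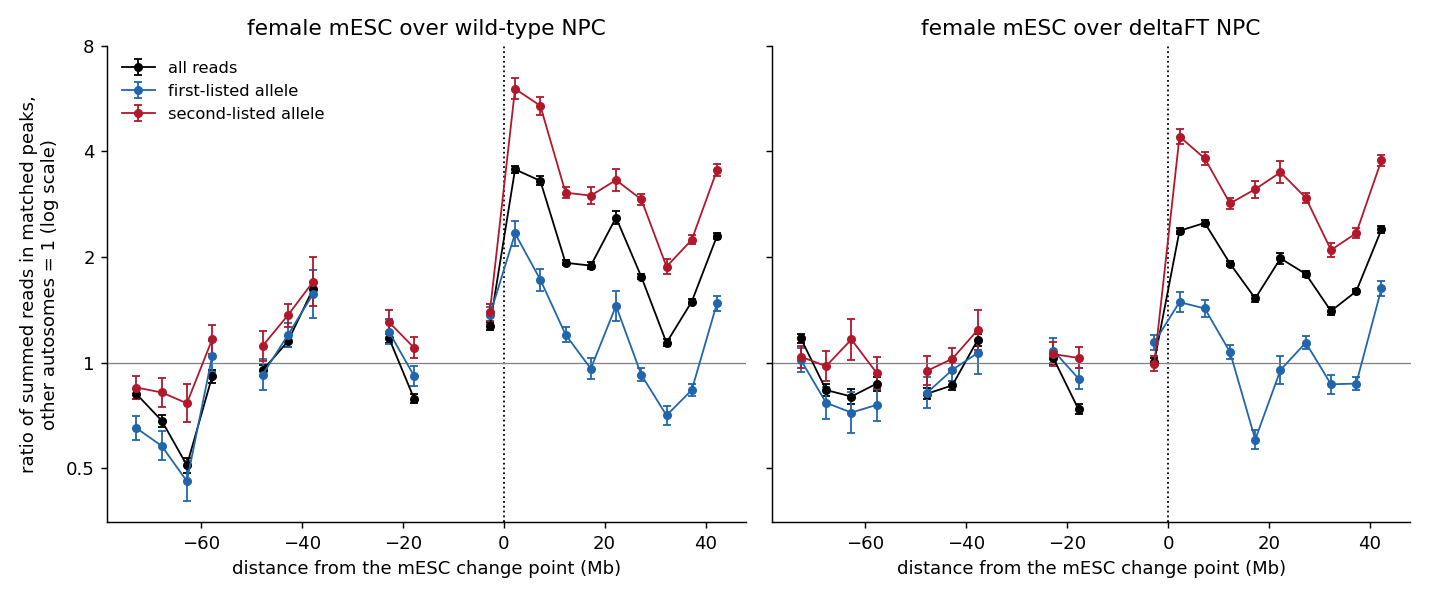
Ratio of summed reads in matched peaks, female mESC over each NPC line, in 5 Mb windows of chromosome 12 with at least 10 matched peaks, by distance in Mb from the mESC change point (dotted line), on a log axis with the other autosomes set to 1. Bars are 95% counting intervals. To the right of the line the second-listed allele lies between 1.88 and 6.03 over wild-type NPC. Over deltaFT NPC it lies between 2.09 and 4.41. It is above the first-listed allele in every window there, an order that restates the mESC share that chose the stretch.

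The size of the excess varied along the stretch much more than the allelic share did. Over wild-type NPC the total ratio ran from 3.56 in the window from 75 to 80 Mb and 3.30 from 80 to 85 Mb down to 1.14 from 105 to 110 Mb. Over deltaFT NPC it ran from 2.50 (80 to 85 Mb) to 1.40 (105 to 110 Mb). The first-listed allele went from 0.71 to 2.33 and the second-listed from 1.88 to 6.03 over wild-type NPC. Over deltaFT NPC they went from 0.60 to 1.63 and from 2.09 to 4.41. The 411 windows of the other autosomes had total ratios from 0.42 to 6.18 with a median of 0.96, so that window totals alone did not set the stretch apart. The second-listed allele exceeded the first-listed one in each of the 9 distal windows with enough matched peaks in both comparisons. That order restates the low mESC share that chose the stretch and is no separate result.

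The place of the change in the read ratio depended on the comparator and on how peaks were matched. A fit of 1 change in the mean log2 ratio over 572 matched peaks of chromosome 12 put it between 73187391 and 73636896 for wild-type NPC, 1.82 Mb before the allelic change, with means of 0.04 before and 0.71 after. Over deltaFT NPC, with 582 peaks, it fell between 75009288 and 75009401, 0.22 Mb before the allelic change, with 0.05 and 0.78. The fit over wild-type NPC included the window from 70 to 75 Mb, where the total ratio was 1.27 while the alleles were equal. The NPC lines differed from each other there, at 1.32 for deltaFT over wild type.

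**Figure D4:**
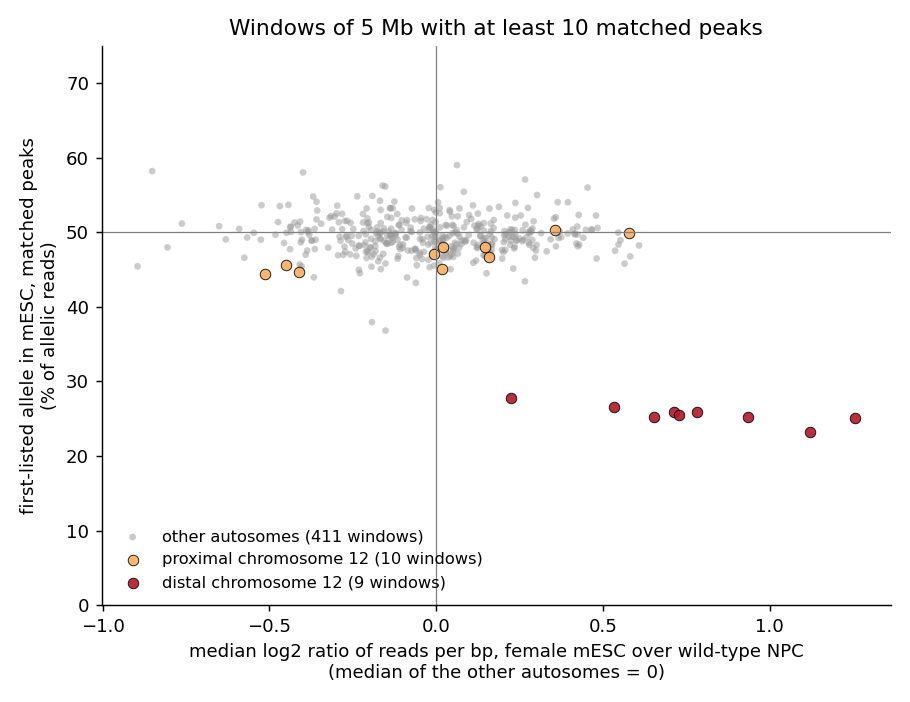
Each point is a 5 Mb autosomal window with at least 10 peaks matched between female mESC and wild-type NPC, with the median log2 ratio of reads per bp on the x axis (other autosomes = 0) and the first-listed allele's share in mESC on the y axis. The 9 distal windows sit apart on the y axis, the value that chose the stretch, and the 10 proximal windows lie with the 411 windows of the other autosomes. On the x axis the distal windows run from 0.22 to 1.25 and overlap the other autosomes, which reach 0.61.

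Between the NPC lines distal chromosome 12 was level. The deltaFT over wild-type ratio of summed reads was 1.05 (1.04 to 1.05) over 586 matched distal peaks, and the median log2 ratio was 0.01 (-0.05 to 0.07). For each allele it was 1.06 and 1.04. Windows of 5 Mb ran from 0.83 to 1.61, with 1.61 from 75 to 80 Mb and 1.49 from 80 to 85 Mb.

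The number of peaks was higher as well. Distal chromosome 12 held 4.37% (4.13% to 4.62%) of the autosomal peaks of mESC, 2.29% (2.14% to 2.44%) of those of wild-type NPC and 2.45% (2.29% to 2.62%) of those of deltaFT NPC. Per Mb these were 26.0, 19.6 and 19.1 peaks, in lists of different sizes. On proximal chromosome 12 the shares were 1.76%, 2.25% and 2.17%. The number of distal peaks divided by that of proximal ones was 2.49 in mESC, next to 1.01 for the wild-type and 1.13 for the deltaFT progenitors.

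Relative to the 18 other autosomes, mESC had 1.95 times (1.78 to 2.12) the distal peaks of wild-type NPC and 1.81 times (1.66 to 1.98) those of deltaFT NPC. Single other autosomes lay between 0.88 and 1.23 in the first comparison and between 0.89 and 1.17 in the second. Proximal chromosome 12 lay at 0.79 and 0.82, under those ranges. The distal ratio was above 1 in all 10 windows of 5 Mb, from 1.36 (90 to 95 Mb) to 5.70 (75 to 80 Mb, 136 peaks against 35) over wild-type NPC and from 1.36 to 2.44 over deltaFT NPC. Of the 15 proximal windows, 3 were above 1 in each comparison. The highest of them, from 60 to 65 Mb, had 1.98 (1.11 to 3.53, 27 peaks against 20) over wild-type NPC. Over deltaFT NPC it had 2.76 (1.42 to 5.35, 27 against 13), above every distal window.

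**Figure D5:**
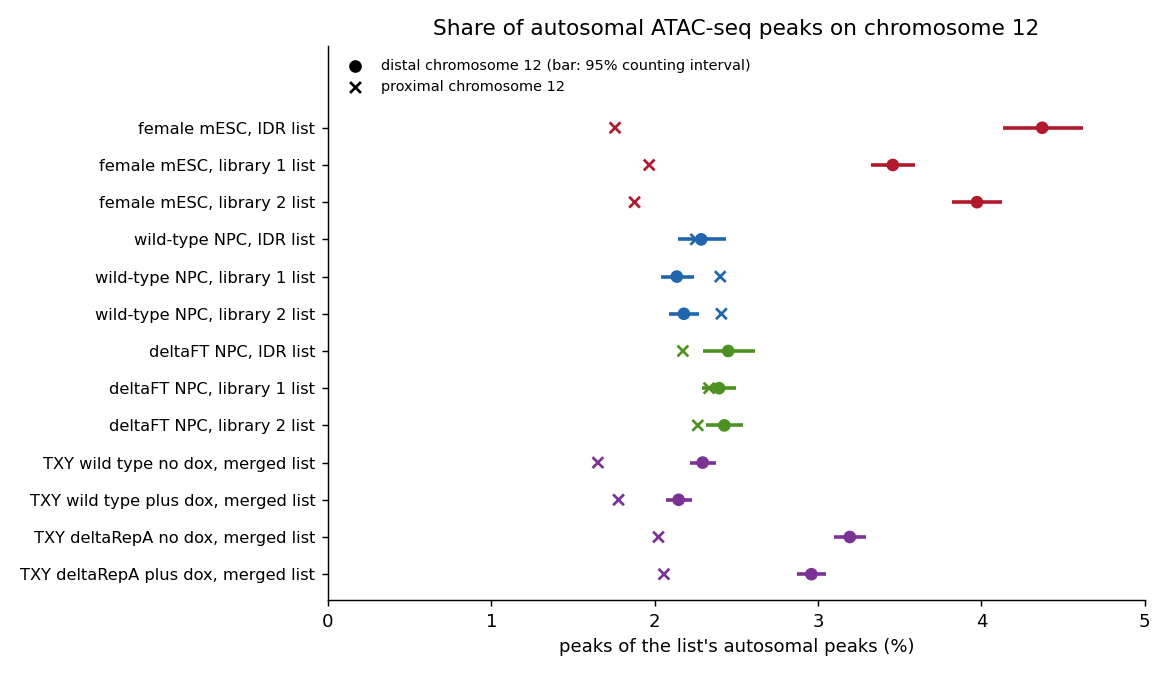
Percent of each list's autosomal peaks that lie on distal (dots, with 95% exact counting intervals) and proximal (crosses) chromosome 12, for the 9 lists of the female lines and the 4 TXY lists. All 3 female mESC lists are above every other list for distal chromosome 12, from 3.46% to 4.37%, followed by the deltaRepA lists at 3.19% and 2.96%.

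Both libraries of each line gave the same order. In the lists of single libraries, distal chromosome 12 held 3.46% and 3.97% of autosomal peaks in mESC, 2.14% and 2.18% in wild-type NPC and 2.39% and 2.43% in deltaFT NPC. The mESC libraries did not overlap with the others. They are 2 libraries of 1 line, so this spread is not one between cultures or animals. In the authors' own scores the median −log10 p over all distal peaks was 7.03 in mESC library 1 and 7.54 in library 2, next to 6.88 and 7.98 on the other autosomes, so the libraries differed in direction.

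Many of the extra mESC peaks had no NPC counterpart. Of 1204 distal mESC peaks 350 (29.1%, 26.5% to 31.7%) overlapped a wild-type NPC peak, against 49.2% on the proximal side and 47.0% on the other autosomes. With deltaFT NPC these shares were 30.8%, 47.5% and 48.96%. Among peaks with at least 200 reads the overlap with wild-type NPC was 46.3% on distal chromosome 12 and 71.8% on the other autosomes. In weaker peaks it was 16.2% and 32.5%. The matched peaks behind the read ratios above are thus a smaller part of the members here than elsewhere.

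The male TXY lists hold no allelic counts, and they were made from merged libraries, so peak number is the readout they share with the female lines. Untreated wild-type TXY mESC had 3152 distal peaks, 2.29% (2.22% to 2.37%) of the autosomal total, the same share as wild-type NPC. Female mESC had 1.95 times (1.82 to 2.09) as many relative to the other autosomes, where single autosomes ran from 0.55 to 1.32. Over untreated deltaRepA TXY mESC the ratio was 1.38 (1.29 to 1.48), next to 0.60 to 1.38 for single autosomes. The size of the difference between stem-cell lines thus depended on which TXY line was used, and the lists were made differently.

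Most distal peaks of female mESC were also listed in the TXY cells. In untreated wild-type TXY mESC 1062 of 1204 (88.2%, 86.2% to 89.97%) had a counterpart, against 97.3% of proximal peaks and 96.7% on the other autosomes. In untreated deltaRepA cells it was 90.03%, against 96.9% and 95.2%. Among peaks with at least 200 reads, 96.7% of the distal ones and 99.8% of those on the other autosomes had a counterpart in wild-type TXY cells, and among weaker ones 81.9% and 94.96% did.

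Untreated deltaRepA cells had more distal peaks than untreated wild-type TXY cells. The counts were 4042 and 3152, a ratio of 1.41 (1.35 to 1.48) relative to the other autosomes, of which the highest was 1.16. All 10 distal windows were above 1, from 1.13 to 2.37, the latter from 95 to 100 Mb. The excess was not bounded at the mESC change: from 60 to 75 Mb the ratio was 1.75, and from the start of the chromosome to 60 Mb it was 1.05. This comparison and the one with female mESC share the wild-type TXY list.

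Relative to the other autosomes, distal peaks were slightly fewer with doxycycline. The plus-dox over no-dox ratio was 0.94 (0.89 to 0.99) in wild-type cells, with 2662 and 3152 peaks, and 0.92 (0.88 to 0.97) in deltaRepA cells, with 4145 and 4042. Single other autosomes ran from 0.96 to 1.06 and from 0.96 to 1.05. Among peaks with a −log10 q of at least 5 the ratios were 0.94 (0.86 to 1.03) and 1.02 (0.94 to 1.10), so the direction in deltaRepA cells turned with the threshold. Of the no-dox distal peaks, 59.99% in wild-type and 64.3% in deltaRepA cells overlapped a plus-dox peak, against 62.1% and 68.8% on the other autosomes. With 1 list per condition none of these differences has a replicate.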

How the data were processed

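Reads were processed by the authors with cutadapt, Bowtie2 and MACS2 against mm9, per the submitters' processing notes. Not given in the sources used here are tool versions, settings, duplicate removal, any Tn5 shift, how alleles were assigned and whether a count covers 1 library or both. The authors deposited, per female line, the peaks found reproducibly in 2 libraries, each with a raw read count and a count per allele, besides a list for each library. TXY conditions have a single list of merged libraries. The library and TXY lists hold −log10 p and q values of MACS2, as deposited by the authors.

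The members and lists were chosen with earlier results of these data known. Peaks with at least 10 allelic reads were pooled by part (Clopper-Pearson intervals, scipy 1.17.1). The allelic change point maximised the binomial likelihood of 2 levels, and that of the read ratio minimised squared error, with at least 20 peaks on each side. Peaks of different lists were matched by mutual largest overlap of at least 1 bp, and ratios were divided by those of the 18 other autosomes. Intervals of summed reads and peak numbers came from counting error, and those of medians over peaks from the ranks of the peaks. Both change-point fits and the median ratio of total reads over matched peaks were tested on simulated data. The mESC list was matched there to a copy with the same coordinates, so matching between different lists was not tested. The intervals and the ratios of each allele were not simulated. Named sites were the 10 distal peaks with most allelic reads in mESC, 5 usable peaks on each side of the change, the 5 peaks with most reads among those with a high first-listed allele, the 3 distal peaks with most allelic reads in each NPC list, and the first and last usable peak. Starts were raised by 1 to count from 1. With 1 sample per group no test between groups was made. The reference given was of another build, so peaks were not placed in genes, the fixed gene and marker lists were not applied and no sequence was printed.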

Additional observations from a re-analysis of the deposited data

How the results depend on the processing

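Of 43 alternative values, 26 were classed as the same as the value reported, 16 as moved and 1 as reversed. Where the value reported had an interval, the same meant inside it. The mESC share of the first-listed allele was 24.5% as a median over peaks and 25.4% without peaks under 5% or over 95%, and the deltaFT NPC share was 48.3% and 49.5% with these choices and 48.8% without the 1% of peaks with most allelic reads. The spread of distal mESC shares was 10.5 points with at least 50 allelic reads. The allelic change stayed in the same gap with 1 vote per peak and without extreme peaks. With at least 20 allelic reads the peak that closes the gap drops out, and the midpoint of the wider gap was 75.24 Mb. The read-ratio change moved to 75.01 Mb with deltaFT NPC as the comparator. The log2 read ratio over wild-type NPC was 0.95 from summed reads. For the first-listed allele the median over peaks was 1.01. For the second-listed allele the ratio was 2.84 as a median over peaks, 3.05 over deltaFT NPC and 2.93 with 50% reciprocal overlap. The relative peak number over wild-type NPC was 1.63 in the library 1 lists. Over untreated wild-type TXY cells it was 1.53 with mESC library 1, 1.77 with library 2 and 1.38 with deltaRepA cells as the comparator. The plus-dox ratio in deltaRepA cells reversed, from 0.92 to 1.02, at a −log10 q of at least 5. The causes of these shifts were not tested. Each group is 1 sample, so no replicate could be left out, and peaks with few allelic reads limit single shares rather than pooled ones.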
